A study of Homo sapiens with 20 samples.

Results

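RUNX1 occupancy was followed at 9 genes linked to leukemia with a KMT2A fusion, namely HOXA7, HOXA9, HOXA10, HOXA11, HOXA13, MEIS1, PBX3, MEF2C and MECOM. Every peak of the RUNX1 ChIP-seq table that lay within 50 kb of the span of one of these genes (RefSeq, GRCh38) was taken, which gave 16 of the 26642 peaks. Peaks were taken by position and not by signal, but the genes were chosen with earlier results of these data known. The peaks fell into 3 loci, with 5 peaks at the HOXA cluster, 5 at PBX3 and 6 at MEF2C. MEIS1 and MECOM had no peak. Peaks are named below by locus and by their order along the chromosome, from HOXA_p01 to MEF2C_p06.

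The libraries came from THP-1, a cultured line derived from a human acute monocytic leukemia, which carries a fusion of KMT2A with MLLT3. Cells held a doxycycline-inducible shRNA cassette, directed against PU.1 in the knockdown group and a control shRNA in the control group, and the cassette was induced in both groups. There were 6 control and 6 knockdown RUNX1 libraries, in 2 experimental rounds that the labels call batches, with 3 control and 2 knockdown libraries in batch 1 and 3 control and 4 knockdown libraries in batch 2. The other 8 of the 20 samples were IgG immunoprecipitations and were not analysed here. All libraries came from derivatives of 1 cell line, so the spread between them is that between immunoprecipitations and not between donors. Each group was its own derivative with its own shRNA, so a difference between the derivatives cannot be told apart from the knockdown. The comparison addressed whether RUNX1 binding was redistributed when its partner PU.1 was reduced, and PU.1 itself was not measured in these libraries. The counts come from bulk chromatin, in which binding in fewer cells and less binding per cell cannot be told apart.

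RUNX1 is the DNA-binding subunit of core-binding factor and, with the ETS factor PU.1, a regulator of myeloid development. HOXA genes encode homeodomain transcription factors that are active in blood stem and progenitor cells and silenced as cells mature. KMT2A fusion proteins bind the posterior HOXA genes and MEIS1 and keep them transcribed through recruited elongation and H3K79 methylation complexes. MEIS1 and PBX3 are homeodomain proteins of the TALE class and bind DNA together with HOXA9. MEF2C is a MADS-box factor and MECOM encodes the zinc-finger factor EVI1, and both are active in stem and progenitor cells and in subsets of KMT2A-rearranged leukemia.

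The sequences at the gene starts were examined first, because they show what the peaks over promoters cover. RefSeq (GRCh38.p14) lists 18 start sites for the 9 genes, and a peak overlapped the promoter window (250 bases before to 50 after the start) of 3 of them, or 16.7%, against 23.8% of 35116 windows of all genes. HOXA_p04 covered the HOXA11 start and MEF2C_p05 covered a MEF2C start, while MEF2C_p03 overlapped the bases before another MEF2C start and ended 44 bp short of the start itself. The 250 bases before each of these starts were searched on both strands for the RUNX core TGTGGT (reverse complement ACCACA) and the PU.1 core GAGGAA, which reads TTCCTC on the other strand, and matches are in capitals. PBX3-DT, the divergent transcript upstream of PBX3, is shown for its start under PBX3_p02, and MEIS1 is shown as a KMT2A-fusion target without a peak. All are written 5′ to 3′ on the strand of the gene.
HOXA11, chr7:27185233-27185482, minus strand, under HOXA_p04: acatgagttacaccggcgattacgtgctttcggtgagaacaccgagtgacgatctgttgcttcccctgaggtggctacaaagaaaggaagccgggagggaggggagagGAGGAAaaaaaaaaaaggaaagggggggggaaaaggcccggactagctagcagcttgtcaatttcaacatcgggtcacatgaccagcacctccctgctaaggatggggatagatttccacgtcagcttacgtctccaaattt
MEF2C, chr5:88827193-88827442, minus strand, under MEF2C_p05: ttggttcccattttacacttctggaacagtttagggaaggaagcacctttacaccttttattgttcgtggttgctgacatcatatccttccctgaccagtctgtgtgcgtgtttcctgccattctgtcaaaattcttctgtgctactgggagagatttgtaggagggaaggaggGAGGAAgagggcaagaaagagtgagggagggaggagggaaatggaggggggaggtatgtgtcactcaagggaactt
MEF2C, chr5:88785512-88785761, minus strand, partly under MEF2C_p03: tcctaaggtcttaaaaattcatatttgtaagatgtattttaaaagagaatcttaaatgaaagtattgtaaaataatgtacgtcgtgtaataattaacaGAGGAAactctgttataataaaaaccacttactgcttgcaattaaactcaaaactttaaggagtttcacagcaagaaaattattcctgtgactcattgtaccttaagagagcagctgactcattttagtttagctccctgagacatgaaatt
PBX3-DT, chr9:125745930-125746179, minus strand, under PBX3_p02: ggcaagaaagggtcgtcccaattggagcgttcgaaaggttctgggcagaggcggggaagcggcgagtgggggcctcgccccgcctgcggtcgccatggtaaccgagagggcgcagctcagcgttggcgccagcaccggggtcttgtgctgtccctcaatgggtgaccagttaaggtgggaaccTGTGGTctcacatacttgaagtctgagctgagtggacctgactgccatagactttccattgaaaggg
MEIS1, chr2:66434875-66435124, plus strand, no peak: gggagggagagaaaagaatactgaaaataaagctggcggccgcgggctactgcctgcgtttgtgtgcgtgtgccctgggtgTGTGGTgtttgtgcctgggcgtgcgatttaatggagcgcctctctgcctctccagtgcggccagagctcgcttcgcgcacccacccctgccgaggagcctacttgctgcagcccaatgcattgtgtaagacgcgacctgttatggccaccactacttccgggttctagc

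The HOXA11 stretch and both MEF2C stretches held GAGGAA once, beginning 142 bases before the HOXA11 start and 76 and 152 bases before the MEF2C starts. None of these 3 held TGTGGT. The PBX3-DT stretch held TGTGGT once, 67 bases before the start, and the MEIS1 stretch held it once, 169 bases before the start, although no peak lay there. Over all 35116 stretches of 250 bases, 11% held TGTGGT and 23.6% held GAGGAA on either strand. Among the 8371 whose window lay under a peak the shares were 10.4% and 23.6%. Over the 18 stretches of the member genes they were 11.1% and 33.3%. GAGGAA was not confined to member starts under a peak. It also lay, on either strand, before a MECOM start and before other MEF2C starts without a peak. A match in these windows is a description of the letters and not evidence of a bound site, and the peaks reach beyond the windows.

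In the DESeq2 fit with batch as a covariate, 3 of the 16 member peaks were called at an adjusted p under 0.05 and a fold change over 1.1, and all 3 had less RUNX1 signal after knockdown. The called share was 18.8%, against a background of 42.0% over all 26642 peaks. Lost peaks made up the same 18.8% of the members and 20.7% of all peaks, a share near the background. No member peak was called as gained, against 21.3% of all peaks, although 3 member peaks with higher means after knockdown had an unadjusted p under 0.05. edgeR called 6 of the 16 against 47.1% of all peaks, adding those 3 as gained calls, with 24.1% of all peaks gained by that tool. The median log2 fold change of the members was -0.01 and that of all peaks -0.02. The median absolute log2 fold change was 0.25 for the members and 0.39 for all peaks, and 10 of the 16 members lay between the quartiles of all peaks, -0.36 and 0.41. The median SE of the log2 fold change was 0.20 at the members and 0.21 at all peaks. Member peaks were wider, with a median of 1173 bp against 889 bp, and their median signal per kb of peak width was 32.4 normalised counts against 33.1.

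**Figure D1:**
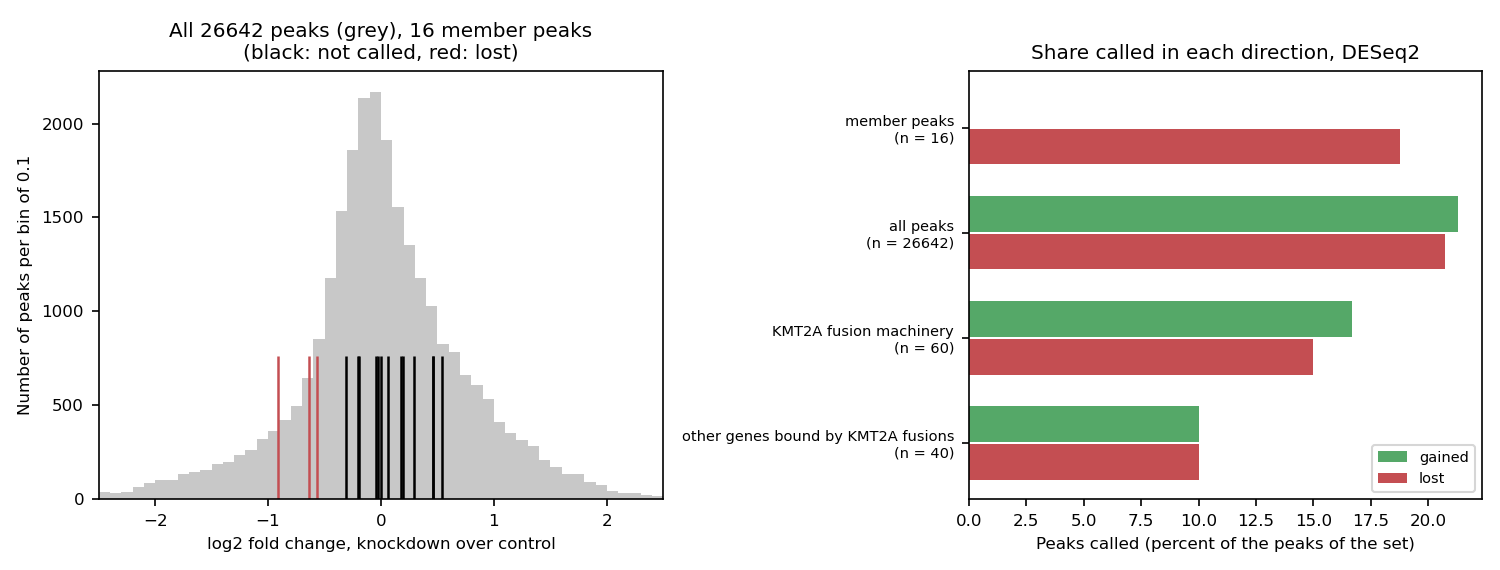
Left, histogram of the DESeq2 log2 fold change (knockdown over control) of all 26642 peaks in grey, with the 16 member peaks as vertical lines, red where lost and black where not called. Right, percent of peaks called gained (green) or lost (red) in each set; the member bar has 3 lost peaks and no gained peak.

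Within batch 1, 1 of the 16 member peaks was called against 12% of all peaks, and within batch 2, 2 were called against 25.8%. The direction was the same in both batches at 13 of the 16 peaks, a share near that of all peaks (21307 of 26642). DESeq2 found no member peak whose knockdown effect differed between the batches, with 0 at an adjusted p under 0.05 and 0 at an unadjusted p under 0.05. The background of these counts was 0.0% and 2.51% of all peaks. edgeR also gave 0 at an adjusted p, and 2 at an unadjusted p under 0.05. At 2 member peaks, all knockdown libraries lay below all control libraries in each batch, as at 13.9% of all peaks. None lay above in each batch, as 14.4% of all peaks did.

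**Figure D2:**
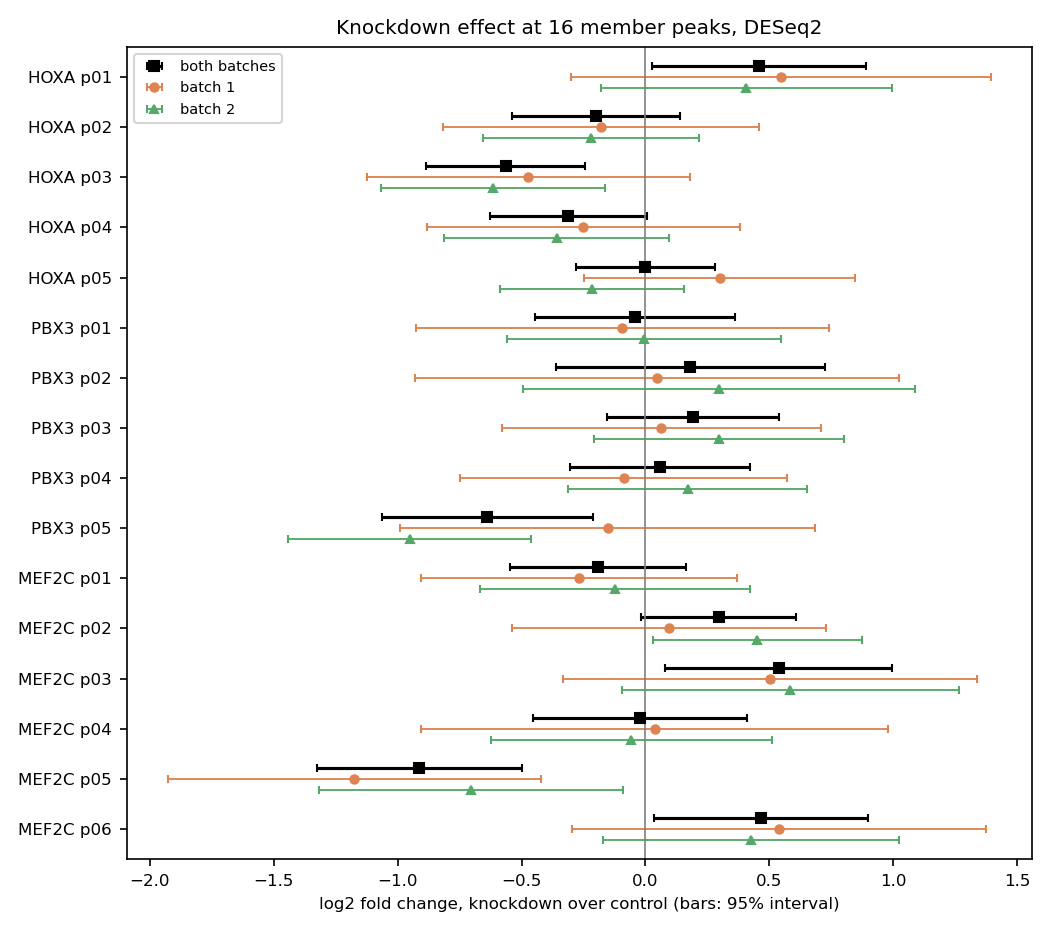
DESeq2 log2 fold change (knockdown over control) of each of the 16 member peaks with its 95% interval, for both batches together (black squares, 6 libraries per group), batch 1 (orange circles) and batch 2 (green triangles). The combined intervals of HOXA_p03, PBX3_p05 and MEF2C_p05 lie wholly below 0. Those of HOXA_p01, MEF2C_p03 and MEF2C_p06 lie wholly above 0, although DESeq2 did not call these peaks at the adjusted threshold.

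The lost HOXA peak lay nearest to HOXA10 and HOXA9, homeodomain factors that sustain self-renewal of myeloid progenitors. It was within 50 kb of all 5 HOXA members, and which gene it acts on was not tested. HOXA_p03 (chr7:27170913-27172291, 1379 bp) lay within the HOXA10 gene and HOXA10-AS and 5376 bp upstream of the HOXA9 start, and was the nearest peak to HOXA9. Its normalised counts (raw counts divided by the size factor of the library) had a lowest, median and highest value of 48.4, 55.4 and 69.4 in the control libraries and 32.1, 37.0 and 48.5 in the knockdown libraries. The groups just overlapped when all libraries were pooled. Within batches they did not overlap, with 48.4 to 53.3 in control and 33.6 to 38.4 in knockdown in batch 1, and 57.5 to 69.4 against 32.1 to 48.5 in batch 2. The mean fell from 56.7 ± 8.07 to 39.1 ± 6.79 (SD, n = 6 per group), and the log2 fold change was -0.56 ± 0.16 (SE, DESeq2 adjusted p = 0.00225). This is 0.677 times the control level, with a 95% interval from 0.542 to 0.845. The log2 fold change was -0.47 in batch 1 (DESeq2 adjusted p = 0.401) and -0.62 in batch 2 (DESeq2 adjusted p = 0.033).

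The other HOXA peaks were not called. HOXA_p04 (chr7:27184353-27186221) covered the start of HOXA11, a posterior HOXA gene known for limb and reproductive tract patterning, and was also the nearest peak to the HOXA10 outer start, at 4492 bp. It had 48.4, 52.3 and 66.3 normalised counts (lowest, median, highest) in control and 38.3, 41.8 and 53.3 in knockdown. The groups overlapped through 1 knockdown library of batch 1, knockdown replicate 2, and in batch 2 control ran from 50.4 to 57.2 and knockdown from 38.3 to 43.8. The log2 fold change was -0.31 ± 0.16 (DESeq2 adjusted p = 0.112). Its 95% interval, from -0.63 to 0.01, does not exclude a loss as large as that of HOXA_p03.

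HOXA_p05 (chr7:27187113-27190122) held the most reads of the 16 peaks and was the widest, at 3010 bp, but had the lowest signal per kb of width, 24.7 normalised counts. It lay over HOXA11-AS between HOXA11 and HOXA13. It was the nearest peak to HOXA13, the most 5′ gene of the cluster and a distal limb factor, at 9969 bp from its start. Normalised counts were 56.8, 75.0 and 96.1 (lowest, median, highest) in control and 64.1, 74.7 and 83.0 in knockdown, so that the knockdown values lay within the control range. The fold change was 1.0 with a 95% interval from 0.824 to 1.21 (DESeq2 adjusted p = 1.0). HOXA_p05 began 891 bp from the end of HOXA_p04. Its log2 fold change was 0.30 in batch 1 and -0.21 in batch 2, and the batch difference had an unadjusted p of 0.0848 (DESeq2 adjusted p = 1.0).

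HOXA7 had no peak over its body, and the nearest to its start was HOXA_p02 (chr7:27141796-27144109), 12566 bp away inside HOXA3 and HOXA5. HOXA_p02 had 45.6, 64.5 and 101 normalised counts (lowest, median, highest) in control and 41.0, 56.4 and 73.1 in knockdown. The groups overlapped in both batches (log2 fold change -0.20 ± 0.17, DESeq2 adjusted p = 0.364). HOXA_p01 (chr7:27136866-27137728), also inside HOXA3, had 11.7, 27.5 and 38.7 in control and 29.1, 37.0 and 47.5 in knockdown. Its groups did not overlap in batch 1 and overlapped in batch 2, and the log2 fold change was 0.46 ± 0.22 (adjusted p = 0.0816 in DESeq2 and 0.0467 in edgeR). Summed over the 5 peaks, the locus held 25.2 ± 2.95 of every 100000 in-peak reads in control and 22.8 ± 1.89 in knockdown (SD, n = 6 per group).

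**Figure D3:**
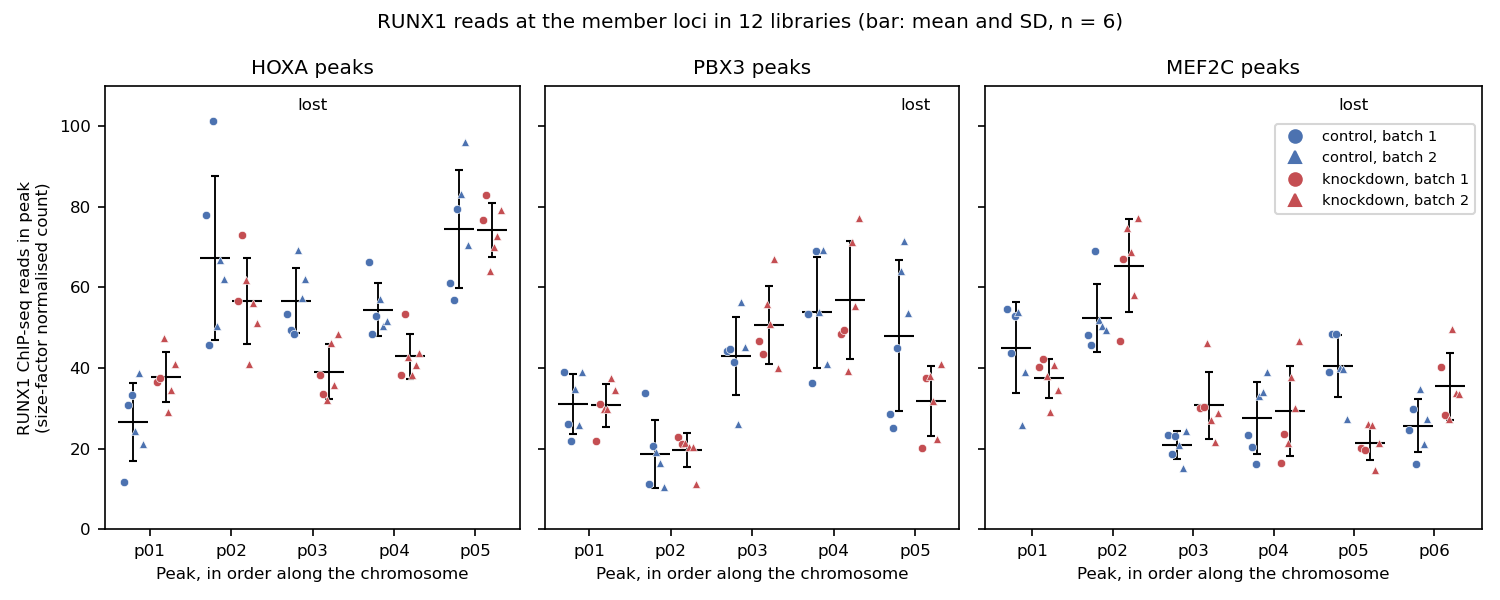
Size-factor normalised RUNX1 read counts of the 16 member peaks in each of the 12 libraries (blue, control; red, knockdown; circles, batch 1; triangles, batch 2), with the mean and SD of 6 libraries per group as bars. At MEF2C_p05 the knockdown libraries sit between 14.7 and 26.1, all below the control libraries at 27.4 to 48.4.

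At PBX3, which encodes the TALE partner that stabilises HOXA9 on DNA, 1 of 5 peaks was called. PBX3_p05 (chr9:125889977-125891394, 1418 bp) lay inside the gene. Its normalised counts were 25.1, 49.3 and 71.5 (lowest, median, highest) in control and 20.1, 34.6 and 41.0 in knockdown. The groups overlapped in batch 1, where control ran from 25.1 to 44.9 and knockdown from 20.1 to 37.5. They were apart in batch 2, where control ran from 53.7 to 71.5 and knockdown from 22.3 to 41.0. The mean was 48.0 ± 18.7 in control and 31.8 ± 8.75 in knockdown, and the log2 fold change was -0.64 ± 0.22 (DESeq2 adjusted p = 0.0102). Fitted alone with DESeq2, batch 2 passed the test at -0.95 on the log2 scale (adjusted p = 0.0014). Batch 1 did not, at -0.15 (DESeq2 adjusted p = 0.881). The difference between the batches was -0.79 ± 0.43 (unadjusted p = 0.0682, DESeq2 adjusted p = 1.0). The call was lost without control replicate 5 (log2 fold change -0.53, DESeq2 adjusted p = 0.0646).

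The 4 other PBX3 peaks had log2 fold changes from -0.04 to 0.19, with DESeq2 adjusted p from 0.405 to 0.896, and their groups overlapped in each batch. PBX3_p02 (chr9:125745875-125746619), over the PBX3-DT start printed above and 754 bp before the PBX3 outer start, was the nearest to the gene's 5′ end. It had 10.5, 17.8 and 33.8 normalised counts (lowest, median, highest) in control and 11.2, 20.8 and 22.8 in knockdown. These ranges overlapped in both batches, and the fold change of 1.13 had a wide 95% interval, from 0.778 to 1.65 (DESeq2 adjusted p = 0.634). PBX3_p04 (chr9:125822787-125824889), inside the gene, held the most reads of the locus, with 36.3, 53.5 and 69.2 in control and 39.2, 52.4 and 77.3 in knockdown. Its groups overlapped in both batches (log2 fold change 0.06 ± 0.19, DESeq2 adjusted p = 0.83). PBX3_p01 lay 39867 bp upstream, over the promoter of MAPKAP1, a subunit of the mTORC2 kinase complex, and PBX3_p03 lay inside PBX3 near its 5′ end. The locus held 17.5 ± 2.83 of every 100000 in-peak reads in control and 17.3 ± 1.65 in knockdown.

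MEF2C held the peak with the largest loss among the 16. MEF2C_p05 (chr5:88826821-88827748, 928 bp) covered a RefSeq start of MEF2C inside the gene, whose upstream bases are printed above with their GAGGAA match. Its normalised counts were 27.4, 39.9 and 48.4 (lowest, median, highest) in control and 14.7, 20.8 and 26.1 in knockdown. Every knockdown library lay below every control library, pooled and in each batch. The mean fell from 40.5 ± 7.74 to 21.3 ± 4.27 (SD, n = 6 per group), and DESeq2 gave a log2 fold change of -0.91 ± 0.21 at an adjusted p of 9.2e-05. Signal was 0.531 times that of control, with a 95% interval from 0.399 to 0.707. The log2 fold change was -1.17 in batch 1 (DESeq2 adjusted p = 0.0258) and -0.70 in batch 2 (DESeq2 adjusted p = 0.0812), and the effect did not pass the test of a difference between batches (unadjusted p = 0.277).

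The closest neighbour of this peak was not called. MEF2C_p04 (chr5:88825204-88825900) ended 920 bp before MEF2C_p05 began and had 16.1, 28.2 and 39.0 normalised counts in control and 16.4, 26.8 and 46.6 in knockdown. Its groups overlapped in both batches, with a log2 fold change of -0.02 and a 95% interval from -0.46 to 0.41. The interval of MEF2C_p05, from -1.33 to -0.50, did not overlap it, and the difference between the neighbours was not tested.

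DESeq2 called no other MEF2C peak. MEF2C_p03 (chr5:88785555-88786218), over the upstream bases of another listed MEF2C start, had 15.2, 21.9 and 24.2 normalised counts (lowest, median, highest) in control and 21.7, 29.5 and 46.3 in knockdown. The groups did not overlap in batch 1, at 18.6 to 23.4 and 30.1 to 30.3, and overlapped in batch 2. Its log2 fold change was 0.54 ± 0.23, next to the threshold in DESeq2 (adjusted p = 0.0509) and past it in edgeR (adjusted p = 0.025). MEF2C_p06 (chr5:88842655-88843266), the peak nearest the MEF2C outer start although still 60839 bp inside, had 16.1, 26.0 and 34.7 in control and 27.3, 33.7 and 49.6 in knockdown. Its groups overlapped in both batches (log2 fold change 0.46 ± 0.22, DESeq2 adjusted p = 0.0763, edgeR adjusted p = 0.035).

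MEF2C_p02 (chr5:88734424-88735556) held the most reads of the locus and stood at percentile 83.1 of all peaks in signal per kb of width. It had 45.6, 49.96 and 69.1 normalised counts in control and 46.6, 67.9 and 77.3 in knockdown. The groups overlapped in batch 1 and were apart in batch 2, at 49.5 to 52.0 and 58.0 to 77.3 (log2 fold change 0.30 ± 0.16, DESeq2 adjusted p = 0.126). MEF2C_p01 lay beyond the 3′ end in MIR9-2HG and differed by -0.19 ± 0.18 on the log2 scale (DESeq2 adjusted p = 0.417). The locus total was 19.1 ± 1.58 of every 100000 in-peak reads in control and 20 ± 1.89 in knockdown. Over the 3 loci together it was 61.7 ± 5.74 and 60.1 ± 3.50, a difference within the spread between libraries.

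**Figure D4:**
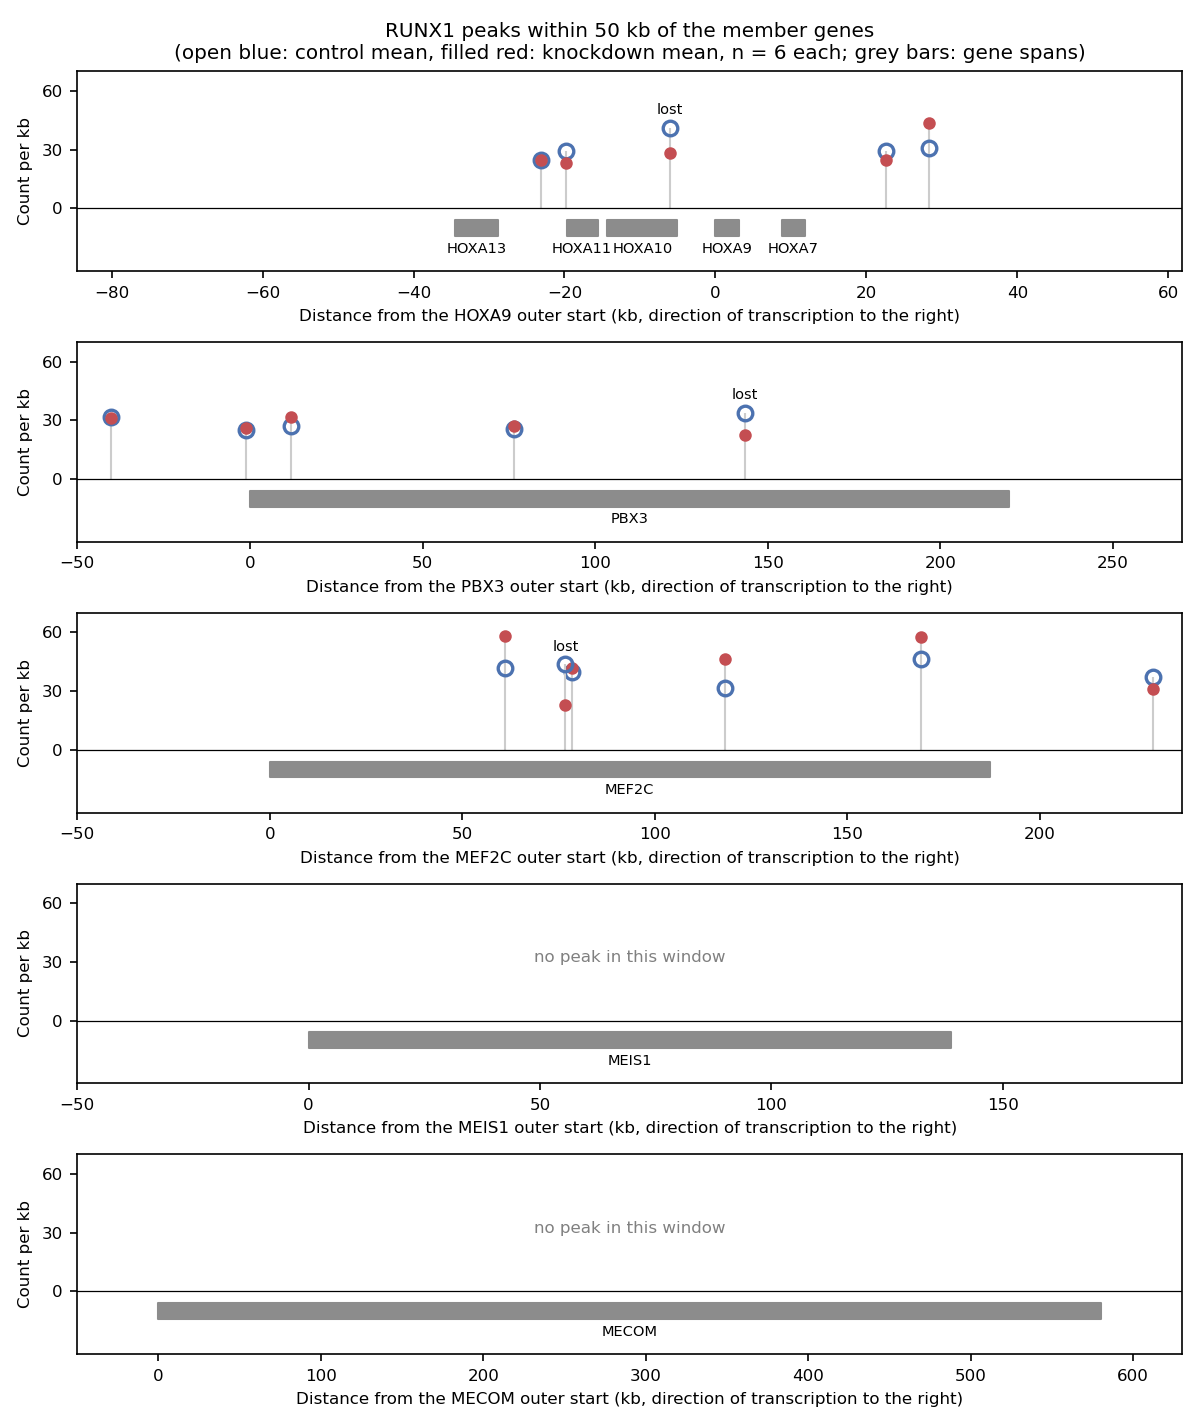
Signal per kb of peak width (mean normalised count of 6 libraries; open blue circles, control; filled red circles, knockdown) of each peak against its distance in kb from the outer start of HOXA9, PBX3, MEF2C, MEIS1 or MECOM, with gene spans as grey bars and the window reaching 50 kb beyond them. The 3 lost peaks lie inside HOXA10 (upstream of HOXA9), inside PBX3 and inside MEF2C, and the MEIS1 and MECOM windows are empty.

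MEIS1, the HOXA9 cofactor that is a defining KMT2A-fusion target, lay in a stretch of 1455685 bp without a peak. The nearest peak (chr2:65940676-65941280) was 493845 bp away, so it was not among the members. That peak was weak in control, at 15.95 ± 5.38 normalised counts, and fell to 3.11 ± 1.72 in knockdown (SD, n = 6 per group; log2 fold change -2.40 ± 0.44, DESeq2 adjusted p = 4.24e-07). MECOM lay in a stretch of 1605278 bp without a peak, and its nearest peak (chr3:169762754-169763438) was 99042 bp upstream, near ACTRT3, where DESeq2 gave -0.07 on the log2 scale (adjusted p = 0.846). Genes without a peak within 50 kb were not rare. They were 19.2% of 20037 protein-coding genes, 16.4% of the 3356 that span at least 100 kb and 23.5% of the 315 that span at least 500 kb. The table lists reproducible peaks, so weaker RUNX1 signal at MEIS1 or MECOM was not measured here.

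Just outside the window of 50 kb, a peak 55239 bp beyond the 3′ end of MEF2C in MIR9-2HG (chr5:88659912-88661878) held more reads than any member. Its mean of 140.4 ± 24.4 normalised counts in control rose to 189.8 ± 25.2 in knockdown, by 0.49 ± 0.11 on the log2 scale (DESeq2 adjusted p = 4.13e-05). At 96620 bp from PBX3, a peak inside MAPKAP1 had 26.3 ± 8.30 in control and 14.7 ± 4.07 in knockdown, at -0.90 ± 0.26 on the log2 scale (DESeq2 adjusted p = 0.00234).

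Related genes outside the members were counted from 2 lists, over peaks that are not members. For 11 genes of the KMT2A fusion and its elongation and chromatin partners, 19 of 60 peaks were called (31.7%, background 42.0%), 10 gained and 9 lost. DOT1L, the H3K79 methyltransferase, had 5 gained and 3 lost of 11 peaks within 50 kb, where 21.3% of all peaks were gained and 20.7% lost. It was singled out after its values were seen, and MLLT3, MLLT1, AFF4 and PSIP1 had no called peak. For 8 other genes that KMT2A fusions bind, 8 of 40 peaks were called (20%), 4 gained and 4 lost. BCL11A, a zinc-finger repressor, held 2 of the lost peaks, the clearer of which fell from 112.1 ± 18.2 to 61.1 ± 14.5, which is -0.94 ± 0.15 on the log2 scale (DESeq2 adjusted p = 2.14e-09). JMJD1C, a histone demethylase family member, held all 4 gained ones among its 18 peaks, a share near the 21.3% of all peaks. BCL11A and JMJD1C were also singled out after their values were seen.

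Libraries held 630247 to 1199004 in-peak reads in control and 938745 to 1719840 in knockdown, and a member peak held between 9 and 126 raw reads in a library. The groups separated over the whole table. Every library correlated with each library of its own group at r of at least 0.834 (log2 of the normalised count plus 1, across peaks, which are not independent replicates) and with those of the other group at no more than 0.705. That held for control replicate 3 too, with at least 0.85 and at most 0.683.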

How the data were processed

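The authors deposited raw counts of RUNX1 ChIP-seq reads over merged peaks for the 12 RUNX1 libraries, with no normalization, and the width of each peak as other information. Per the study's methods, reads were aligned with bowtie2, duplicates were removed, peaks were called per condition and batch with macs2, filtered for reproducibility between batches, merged and counted with featureCounts. The methods name the mouse build GRCm38 for this assay, and the labels name both GRCm38 and GRCh38. The coordinates were read as GRCh38, since the cells are human and 1666 peaks lie on chromosomes 20 to 22, which the mouse lacks. No exon annotation was used, so exons and introns are not told apart. The peaks were called on the libraries that are compared and are not independent of the comparison.

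Groups, replicate numbers and batches follow the labels. Another listing by the study gives the batch 1 libraries with the group sizes the other way round, and was not followed. Counts over all 26642 peaks were fitted with DESeq2 1.42.0 (R 4.3.3; Wald test, batch and genotype) and called at a Benjamini-Hochberg adjusted p under 0.05 over all peaks and a fold change over 1.1. The tool and both thresholds are those of the study's methods, and the batch term was added here. Each batch was also fitted alone, the genotype by batch term was tested, and edgeR 4.0.16 (quasi-likelihood) was an alternative. Intervals are 95% Wald intervals of the log2 fold change. Peaks were assigned by distance to RefSeq gene spans, and promoter sequences came from RefSeq (GRCh38.p14).

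The members and gene lists were chosen with earlier results of these data known. The text names each called peak, the peak nearest the 5′ end and the peak with the most reads of each gene, and each peak over a promoter of a member. Other peaks named were chosen after their values were seen. In-peak reads ran from 630247 to 1719840 per library, and no library was a duplicate of another. Reads outside peaks were not used here. Some results on related genes are not reported here.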

Additional observations from a re-analysis of the deposited data

Results flagged for a closer look

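Among the 32 groups of 6 libraries (16 peaks, control and knockdown), 4 held a library whose gap to the nearest of the others exceeded Dixon's 95% critical value, 0.625 of the range. Chance flags about 1 in 20 groups, or 1.6 of 32. At HOXA_p04, over the HOXA11 start, knockdown replicate 2 had 53.33 normalised counts against 38.32 to 43.8 in the other knockdown libraries. At PBX3_p02, before the PBX3 start, knockdown replicate 6 had 11.18 against 20.4 to 22.83. At MEF2C_p02, control replicate 3 had 69.13 against 45.6 to 52.03, and without this library the peak passed the test as gained (log2 fold change 0.39, DESeq2 adjusted p = 0.0442). At MEF2C_p03, knockdown replicate 3 had 46.32 against 21.67 to 30.29. The 4 values came from 4 different libraries, and their cause was not tested.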

How the results depend on the processing

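The count of 3 called member peaks was 6 with edgeR, 5 with at least 10 counts in every library (15 peaks tested), 5 in a window of 100 kb (21 peaks) and 0 at a fold change over 2. It was 3 to 4 when 1 library was left out and 2 with the replicate block. The calls over all peaks moved too. Of 26642 peaks, 11185 were called in the reported fit, 12536 with edgeR, 9495 with the replicate block and 4545 at a fold change over 2. With 1 library left out, 9741 to 10764 were called. With at least 10 counts in every library, 5877 were called, among fewer peaks tested. HOXA_p03 and MEF2C_p05 were called as lost in all 20 alternatives run for each single peak. PBX3_p05 lost its call under the replicate block (log2 fold change -0.56, DESeq2 adjusted p = 0.0725) and without control replicate 5. MEF2C_p03 was called as gained in 6 alternatives, among them other size factors (TMM 0.55, in-peak totals 0.56) and no batch covariate (0.53), with adjusted p from 0.025. The batch 1 count of 1 (3194 of all peaks called) stayed 1 without control replicate 1 (2124 of all peaks). It was 0 without control replicate 2 or 3 (1140 and 1114 of all peaks). Leaving out either knockdown library left 1 library in that arm, so those counts are not given. The batch 2 count of 2 (6886 of all peaks) ranged from 1 to 2 with 1 library left out (4353 to 6004) and was 4 with edgeR (9647). It was 1 without control replicate 4, 5 or 6 or knockdown replicate 3 or 5.

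Peaks with a fold change near 1 changed sign without passing the test. HOXA_p05 had log2 fold changes of 0.0137 with edgeR, 0.00989 with TMM size factors, 0.0182 with in-peak totals, 0.0106 with no batch covariate, 0.0133 with the replicate block and 0.0678 with the count minimum, and -0.0746 to 0.101 with 1 library left out. With no batch covariate, the replicate block and the count minimum, PBX3_p01 had 0.00579, 0.00207 and 0.0269 and MEF2C_p04 0.0991, 0.0685 and 0.0445. With 1 library left out they ran from -0.135 to 0.0523 and from -0.122 to 0.0669, and PBX3_p04 from -0.0583 to 0.162. Of 319 values over the member peaks, 276 kept direction and call, 12 passed the test where the reported fit did not, 2 lost the call and 29 changed sign.

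Replicate numbers did not pair the libraries. Deviations from the group means correlated at -0.0591 to 0.172 between libraries of the same number, 4 of 12 libraries correlated best with their own number in the other group, and replicate 3 spans both batches. Member peaks held 9 to 126 raw reads per library, and changes smaller than the intervals given were not detectable with these libraries. How far read depth or the spread between libraries set those intervals was not tested.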

Other observations

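The member peaks were also set beside their surroundings. Within 10 Mb windows, the median log2 fold change was 0.05 over 94 peaks around the HOXA cluster, 0.01 to 0.02 over 198 or 199 peaks around PBX3, and 0.11 to 0.12 over 57 or 58 peaks around MEF2C. Relative to these medians, HOXA_p03 stood at -0.61, PBX3_p05 at -0.66 and MEF2C_p05 at -1.04. A normal test of the centred values, with the DESeq2 SE, gave p adjusted by Benjamini-Hochberg over all peaks of 0.000857, 0.00825 and 8e-06. The uncertainty of the medians was not included. The peaks with higher means after knockdown stood at 0.41 for HOXA_p01, 0.43 for MEF2C_p03 and 0.34 for MEF2C_p06, none of them called.

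The genes that form the fusion of THP-1 were also examined. KMT2A had 2 peaks and MLLT3 had 1 within 50 kb, where the median over protein-coding genes was 2. Of the 2 peaks near KMT2A, 1 was called as lost, as were 20.7% of all peaks. The other differed by only -0.09 on the log2 scale. The lost peak (chr11:118565508-118566276) was assigned to KMT2A by distance alone. It had 20.9 ± 5.77 normalised counts in control and 13.0 ± 3.52 in knockdown (SD, n = 6 per group). DESeq2 put this difference at -0.66 ± 0.28 on the log2 scale (adjusted p = 0.0435). The MLLT3 peak had 25.7 ± 6.02 and 28.2 ± 4.82 (log2 fold change 0.14 ± 0.22, DESeq2 adjusted p = 0.638).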
